A study of Mus musculus with 13 samples.

Results

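The interferon-inducible genes described here are 41 genes that cells switch on in response to interferon, chosen by name as a list of sensors, effectors, transcription factors, GTPases and antigen processing genes. Each was represented by the probe set whose annotation gives its symbol alone and whose mean over all arrays was highest. Of the 41, 39 had such a probe set among the 18193 genes that did, and 30 of these lay above a low-signal filter and entered a fit of 12205 genes. Isg15 and Ifi44 were not analysed here. The study profiled UG26-1B6, a stromal line that is a single clone from the urogenital ridge of a midgestation mouse embryo, on 13 Affymetrix arrays, to ask which stroma-derived factors maintain haematopoietic stem cells. Stroma was grown to confluence and irradiated before it received LSK cells, the lineage-negative, Sca-1 and c-Kit positive fraction that contains the blood stem cells.

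Co-cultures with LSK cells were harvested at day 1 (n = 3 arrays), day 2 (n = 3) and day 3 (n = 2). A medium control without LSK cells had its medium changed and was taken 24 h later (n = 2), and day 0 stroma was collected by trypsin before any co-culture (n = 3). All groups share the clone and its culture medium. The sources used here do not give whether day 0 stroma and the medium control were irradiated, or whether LSK cells were removed at harvest. Replicates are biological in the titles and technical in the design text, and a p-value therefore reflects only how far these samples spread. In such mixed wells, fewer cells of a type and less RNA per cell cannot be told apart.

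Type I interferons bind the receptor of Ifnar1 and Ifnar2 and signal through the kinases Jak1 and Tyk2. The signal assembles a complex containing STAT2 and IRF9 that binds the interferon-stimulated response element, while interferon gamma acts at gamma-activated sites. Many of the induced genes also have a low level without added interferon, and several, such as the immunoproteasome genes, are known to be expressed in blood cells.

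The first of these elements was looked for as GAAA, then any 2 bases, then GAAA, on either strand and with overlapping matches counted, in RefSeq promoter windows of GRCm38.p6 that run from 250 bases before to 50 bases after each gene's start. Of the 30 member genes with a window, 15 (50%) held it, against 1079 of 27025 genes (3.99%). The gamma-activated site, searched as TTCNNNGAA, was in 10 of the 30 (33.3%), against 2582 of 27025 (9.55%). A match is a description of letters and does not show that a factor binds there. The response element was in 11 of the 21 member genes with a window that entered the fit and in 3 of the 7 whose probe sets did not. The gamma-activated site was in 10 of the 21 and in 0 of the 7. Some genes that entered, such as Igtp, also lay at the lowest value on most arrays. The stretches below hold the response element and lie upstream of the start. They belong to 6 members that entered and 3 that did not. Each is 58 bases long, reads 5′ to 3′ on the gene's own strand, and has its match in capitals, which reads TTTC, any 2 bases and TTTC where the element is on the opposite strand.
Irgm1, chr11:48871421-48871478, minus strand: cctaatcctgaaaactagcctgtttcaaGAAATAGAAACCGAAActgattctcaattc
Ifit3, chr19:34583366-34583423, plus strand: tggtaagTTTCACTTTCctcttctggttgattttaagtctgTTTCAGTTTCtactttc
Irgm2, chr11:58214889-58214946, plus strand: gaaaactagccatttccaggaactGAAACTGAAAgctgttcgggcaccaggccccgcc
Igtp, chr11:58199498-58199555, plus strand: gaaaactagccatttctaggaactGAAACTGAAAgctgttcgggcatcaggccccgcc
Gbp3, chr3:142559978-142560035, plus strand: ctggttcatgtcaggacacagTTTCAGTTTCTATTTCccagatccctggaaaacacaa
Bst2, chr8:71537566-71537623, minus strand: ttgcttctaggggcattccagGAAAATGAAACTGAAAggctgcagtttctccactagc
Ifit1, chr19:34640770-34640827, plus strand: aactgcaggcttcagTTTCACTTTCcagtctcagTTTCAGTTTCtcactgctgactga
Rsad2, chr12:26456539-26456596, minus strand: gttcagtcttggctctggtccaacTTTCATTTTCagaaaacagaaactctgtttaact
Cxcl10, chr5:92349069-92349126, minus strand: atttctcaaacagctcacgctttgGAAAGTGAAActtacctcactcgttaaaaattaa

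Irgm1, whose values separate day 0 from all other arrays below, carried 2 overlapping matches ending 15 bases before its start. Irgm2 and Igtp, neighbouring GTPase genes, were identical at 56 of the 58 bases printed, and at 184 of 270 bases when their whole windows were aligned on the element. The Irgm2 probe set lay at 3.80 to 7.89 over the arrays, and the Igtp probe set stayed at the lowest value of the table on 11 of 13 arrays. Each gene had 1 probe set, and probe sets differ in affinity, so these levels are not compared with each other. Tap1 and Psmb9 are divergent neighbours whose windows share 275 of their 300 bases on opposite strands, and neither held the letters of the response element. Ifit2 did not hold them either, but held a match to the gamma-activated site.

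Array values are on the log2 scale as deposited. Their lowest value, 2.28, is shared by 31.2% to 43.8% of an array's probe sets. Some probe sets repeat that value or a higher one of their own on at least 3 arrays, as 16 of the 30 members that entered did. Such a repeated value is treated here as a floor where no array lies more than 0.1 below it, a rule set after the values were seen, and a difference from a group wholly at a floor is a bound. That held for 9 of the 16. The other 7, among them Tap1, Gbp2 and Xaf1, also had clearly lower values, and their repeated value is not called a floor. Because probe sets differ in affinity, levels are compared between arrays for 1 gene and not between genes.

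Several strongly inducible antiviral genes had no signal in this stroma. The 9 members that did not enter the fit lay at the shared lowest value on at least 11 arrays each. They were Ifit1 (highest value 2.64), Oasl1 (2.34), Oasl2 (2.36), the interferon amplifier Irf7 (2.36), the antiviral dynamin-like GTPases Mx1 (2.29) and Mx2 (2.28), the lipid droplet antiviral enzyme Rsad2 (3.19), its genomic neighbour Cmpk2 (2.61) and the chemokine Cxcl10 (2.29). Of the members that entered, 10 never exceeded a value of 5: Dhx58, Adar, Ifit3, Oas2, Stat2, Usp18, Igtp, Iigp1, Rtp4 and Parp14. Another 11 exceeded it on some arrays, and Ifih1, Ifit2, Irf1, Trim25, Gbp3, Psmb8, Tap1, Ifi27 and Ifi35 exceeded it on all 13. A value at a floor says only that the probe set gave no measured signal.

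**Figure D1:**
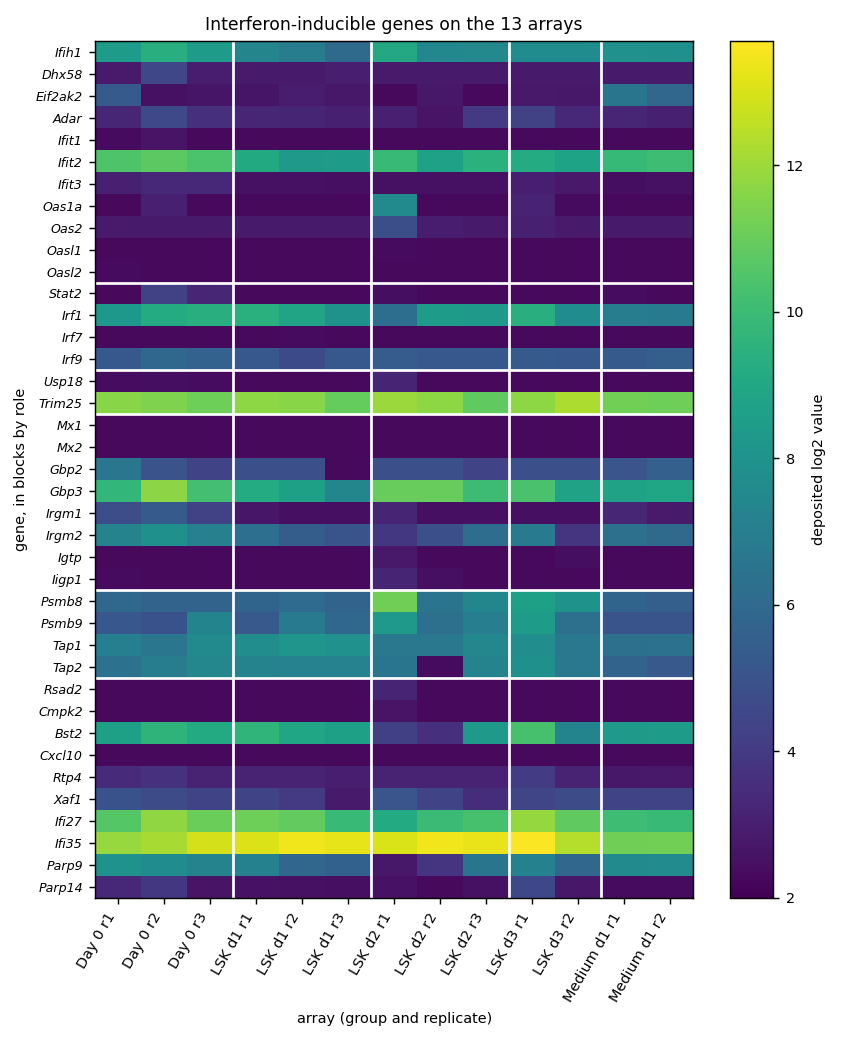
Deposited log2 value (colour) of the 39 members with a probe set, in rows by role, on the 13 arrays, in columns by group. The 9 members that did not enter the fit lie at the lowest value of 2.28 on at least 11 arrays each, with Rsad2 reaching 3.19 on 1 array, and Oas1a and Psmb8 stand out on day 2 replicate 1 at 7.61 and 11.18.

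The arrays differ in ways that bear on these values. Gapdh, a check of RNA integrity, had a 3′ signal 8.96 above its 5′ signal on day 2 replicate 1, and day 3 replicate 2 had a gap of 5.79, while the other 11 arrays had gaps of 3.82 or less. Day 2 replicates 1 and 2 and day 3 replicate 2 also had the lowest upper quartiles (5.08, 6.0 and 6.45, against 6.54 to 6.74 elsewhere), and calls at days 2 and 3 are given with and without these 3 arrays. Of 17 blood cell markers, 5 to 8 exceeded 5 on the day 1 co-culture arrays, 8 to 14 on day 2 and 9 to 10 on day 3, against 0 or 1 in the medium control and at day 0. Their summed linear signal was 600 to 2244 at day 1, 4015 to 55881 at day 2 and 8932 to 15981 at day 3, against 136 to 146 in the medium control and 148 to 230 at day 0. Ptprc, which encodes CD45, was at 2.28 on all 5 arrays without LSK cells. Of 10 stromal markers, 9 exceeded 5 on 12 arrays and 4 on day 2 replicate 1. The median change of the 9 stromal markers tested against day 0 was -0.89 at day 1 of co-culture, -2.02 at day 2 and -1.22 at day 3. It was -0.18 in the medium control, and the medians over all genes were 0, -0.29, 0 and 0 in this order. No stromal marker was called, where 2.15%, 2.26%, 0.819% and 0.328% of all genes were. At day 2 all 9 had changes below 0, with 6 at an unadjusted p under 0.05 in limma (26.3% of all genes in either direction). Of the 9, 5 lay below all day 0 arrays at day 2 (16.2% of all genes). Their part in the members' lower values was not tested. Of 6 endothelial and 6 epithelial markers, at most 2 and 1 exceeded 5 on any array.

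Day 1 of co-culture against day 0 had the most called members of the 7 comparisons, 3, all lower and all genes that sense or restrain intracellular pathogens. Irgm1, an immunity-related GTPase that regulates its relatives and autophagy, lay at 2.69, 2.48 and 2.48 on the 3 co-culture arrays, against 4.75, 5.33 and 4.32 at day 0. Every co-culture array was below every day 0 array, and the 2 lower values lie at or just above the floor of the probe set, 2.48. Irgm1 fell by 2.25 ± 0.29 (SE, limma adjusted p = 0.0104). Leaving out day 1 replicate 2 or 3 gave adjusted p = 0.0602 and 0.0683, and no other single array took the call away.

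Ifit2, which binds viral RNA and blocks its translation, measured 9.11, 8.35 and 8.47 in day 1 co-culture, against 10.46, 10.74 and 10.40 at day 0, with no overlap. It fell by 1.89 ± 0.33 (adjusted p = 0.0290). Its relative Ifit3 measured 2.51, 2.51 and 2.46 against 3.04, 3.32 and 3.32, so the co-culture arrays were at a floor. It fell by at least 0.73 ± 0.15 (adjusted p = 0.0407). Both calls were lost without any 1 of the 6 compared arrays, at adjusted p of 0.0525 to 0.131 for Ifit2 and 0.0536 to 0.165 for Ifit3. Leaving out medium control replicate 1 or 2 also lost them, at 0.0632 for Ifit2 and 0.0832 for Ifit3, and quantile normalization lost that of Ifit3 (0.0808).

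These 3 are of 30 members tested, 0 higher and 3 lower, where 2.15% of all genes were called, 0.828% higher and 1.33% lower. The median change of the 30 was -0.53, against 0 over all genes, with 22 below 0. Trim25, Ifi35 and the 4 antigen processing genes were above 0, and Oas2 and Igtp, at a floor in both groups, did not change. All day 1 arrays were below all day 0 arrays for 9 members (21.3% of all genes) and above them for 2 (17.7%). Among the 6 GTPases tested the median was -1.57, and besides Irgm1 the values of Gbp3 and Irgm2 were lower without overlap. Gbp3, a guanylate-binding protein, measured 9.20, 8.67 and 7.36 in co-culture, against 9.73, 11.66 and 10.23 at day 0, a change of -2.13 ± 0.65 (adjusted p = 0.123). Irgm2, which acts with Irgm1, measured 6.28, 5.44 and 5.06 against 7.25, 7.89 and 7.10, a change of -1.82 ± 0.78 (adjusted p = 0.273). Neither passed the threshold over all genes.

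Among the 8 tested sensors and RNA-binding effectors the median was -0.69, and 2 fell, Ifit2 and Ifit3. Ifih1, the sensor MDA5 of long double-stranded RNA, measured 7.32, 6.93 and 6.06 in day 1 co-culture, against 8.40, 9.32 and 8.45 at day 0. The groups did not overlap, and the change of -1.95 ± 0.48 missed the threshold (adjusted p = 0.0703). Without day 2 replicate 1, which is in neither group but feeds the shared spread, Ifih1 passed at 0.0133, and without all 3 doubted arrays Irgm2 passed as well, at 0.0216. That last setting called 5 members, all lower, and 23.3% of all genes.

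The antigen processing genes did not go the same way. Tap1, part of the transporter that loads peptides onto MHC class I, measured 7.71, 8.11 and 7.91 in co-culture, against 7.05, 6.58 and 7.54 at day 0, a change of 0.85 ± 0.35 (adjusted p = 0.243). Ifi35, a leucine zipper protein of the interferon response, measured 13.09, 13.44 and 13.29 against 11.91, 12.17 and 12.92, a change of 0.94 ± 0.35 (adjusted p = 0.201). These 2 were the only members tested whose co-culture arrays all lay above day 0, and neither passed. The 3 other antigen processing members had changes of 0.08 (Psmb8), 0.21 (Psmb9) and 0.28 (Tap2).

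**Figure D2:**
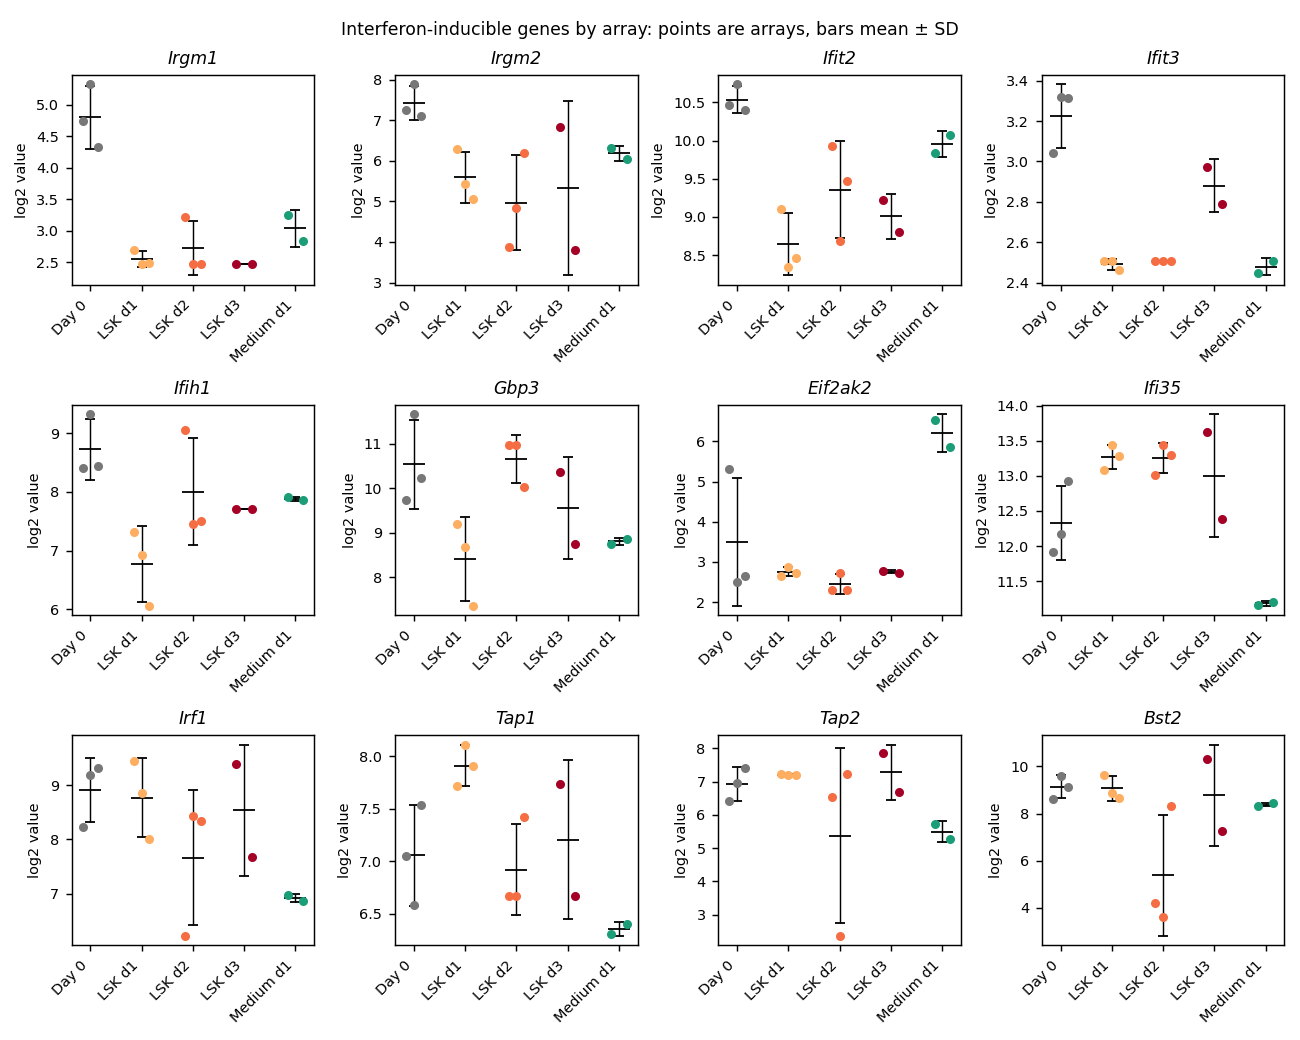
Deposited log2 value of 12 members on each array (points), with group mean and SD (bars), by group. Irgm1 lies at 2.46 to 3.22 on the 8 co-culture arrays and at 3.24 and 2.83 in the medium control, against 4.32 to 5.33 at day 0. Ifi35 in the medium control, at 11.16 and 11.21, lies below every co-culture array.

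The medium control had spent a day in fresh medium without LSK cells. Against day 0, 0 of the 30 members passed the threshold in limma, where 0.328% of all genes did (0.221% higher and 0.107% lower), while 1 member was higher and 7 were lower at an unadjusted p under 0.05 (9.45% of all genes in either direction). The members nevertheless lay low: only 2 of 30 changes were above 0, with a median of -0.64 against 0 over all genes. Igtp, with no change, and Oas2 and Iigp1 were at a floor in both groups. Both medium arrays were below all 3 day 0 arrays for 16 members, against 22.7% of all genes, and above them for Eif2ak2 alone, against 20.6%, and 43.3% of all genes were separated in one direction or the other.

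Irgm1 measured 3.24 and 2.83 in the medium control, below every day 0 array, a change of -1.76 ± 0.33 (adjusted p = 0.0764). Ifit3 measured 2.45 and 2.51, both at a floor, a change of -0.75 ± 0.16 (adjusted p = 0.128). Without day 2 replicate 1 both passed, at 0.0224 for Irgm1 and 0.0390 for Ifit3, in a setting that called 1.36% of all genes. Irf1, a transcription factor of the gamma interferon and NF-kB responses, measured 6.97 and 6.87 in the medium control, against 8.23, 9.19 and 9.31 at day 0. Its change of -1.99 ± 0.76 did not pass (adjusted p = 0.420). Gbp3 measured 8.75 and 8.86 in the medium control, a change of -1.73 ± 0.72 (adjusted p = 0.477), and Ifi35 11.16 and 11.21, a change of -1.15 ± 0.39 (adjusted p = 0.351).

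Eif2ak2, the kinase PKR that halts translation on double-stranded RNA, went the other way. It measured 6.53 and 5.87 in the medium control, against 5.32, 2.51 and 2.65 at day 0, a change of 2.71 ± 0.70 (adjusted p = 0.194). Day 0 replicate 1 stood apart from the other two, and without it the change was 3.62 ± 0.27 (adjusted p = 0.00157). Its other 2 probe sets stayed near the lowest value.

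Day 1 of co-culture against the medium control, matched in time, called 2 of 30 members, 1 higher and 1 lower, where 5.2% of all genes were called, 2.15% higher and 3.05% lower. That is near the share of all genes, and the median change was 0.01 against 0 over all genes. Ifi35 measured 13.09, 13.44 and 13.29 in co-culture and 11.16 and 11.21 in the medium control. Every co-culture array was higher, and Ifi35 rose by 2.09 ± 0.39 (adjusted p = 0.0226). Its other 2 probe sets changed by 1.68 and 2.68, in the same direction. Eif2ak2 measured 2.65, 2.88 and 2.73 in co-culture and 6.53 and 5.87 in the medium control, without overlap. It fell by 3.45 ± 0.70 (adjusted p = 0.0300), and its other 2 probe sets changed by -0.19 and 0.00. Both calls were lost without any 1 of the 5 compared arrays, at adjusted p of 0.0643 to 0.201 for Ifi35 and 0.0871 to 0.251 for Eif2ak2, as was Ifi35 when its probe sets were averaged (0.168) and Eif2ak2 without the filter (0.0520). Blood cell markers were also higher in co-culture than in medium, and their part in the rise of Ifi35 was not tested.

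Co-culture arrays lay above both medium arrays for 8 members (30.7% of all genes) and below them for 7 (31.8%), where 62.5% of all genes were separated in either direction. Antigen processing genes were on the higher side: Tap1 measured 6.31 and 6.40 in the medium control, below its 3 co-culture values, a change of 1.56 ± 0.39 (adjusted p = 0.0516). Tap2, its partner, measured 7.23, 7.21 and 7.19 in co-culture and 5.71 and 5.28 in the medium control, a change of 1.71 ± 1.16 (adjusted p = 0.487). On day 2 Tap2 measured 6.53, 2.36 and 7.23, and without replicate 2 of that day, which is in neither group, its change had an SE of 0.41 and passed (adjusted p = 0.0429). Irf1 had a change of 1.85 ± 0.76 (adjusted p = 0.202). Without the 3 doubted arrays Tap1, Tap2, Irf1 and Ifit2 passed too, at 0.0129, 0.0114, 0.0405 and 0.0147, in a setting that called 30.9% of all genes. Irgm1 had a change of -0.49 ± 0.33 (adjusted p = 0.483) and Ifit2 of -1.31 ± 0.37 (adjusted p = 0.0737).

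Set side by side, the 3 comparisons among day 1 co-culture, medium and day 0 share arrays, so they are given as each gene's own values. Irgm1 averaged 2.55 ± 0.13 in day 1 co-culture (SD, n = 3), 3.04 ± 0.29 in the medium control (n = 2) and 4.80 ± 0.50 at day 0 (n = 3). Ifit2 averaged 8.64 ± 0.41, 9.95 ± 0.17 and 10.53 ± 0.18 in the same order. By these values the medium control lay nearer to co-culture for Irgm1 and nearer to day 0 for Ifit2. The Irgm1 co-culture values lie at or near its floor of 2.48, so its distance from the medium control may be larger than measured. Tap1 averaged 7.91 ± 0.20 in day 1 co-culture, 6.36 ± 0.07 in the medium control and 7.06 ± 0.48 at day 0, and Ifi35 averaged 13.27 ± 0.18, 11.18 ± 0.03 and 12.33 ± 0.53, so that the medium control was lowest of the 3 for both. Later in co-culture Tap1 repeated 1 value, 6.67, on exactly the 3 doubted arrays, and measured 7.42 and 7.74 on the other 2 of days 2 and 3.

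**Figure D3:**
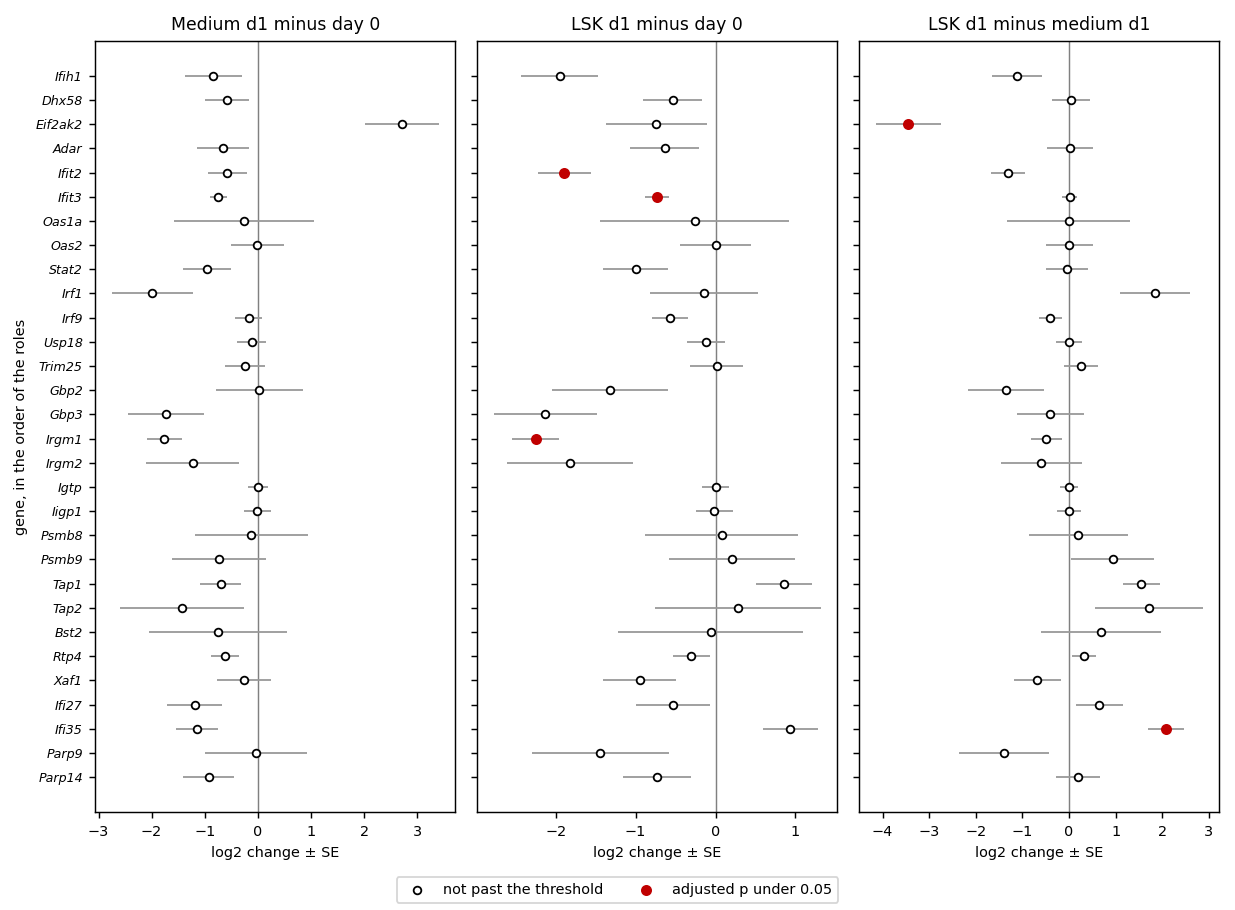
Log2 change ± SE of the 30 members tested, by role, in the 3 comparisons among day 1 co-culture, medium control and day 0. Filled points pass an adjusted p of 0.05 over all genes: 0 against day 0 for medium, 3 lower for co-culture against day 0, and Ifi35 (2.09) and Eif2ak2 (-3.45) for co-culture against medium.

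At day 2 of co-culture against day 0, 2 of 30 members were called, both lower, where 2.26% of all genes were, 0.639% higher and 1.62% lower. The median change of the members was -0.58, and that of all genes was itself -0.29. Irgm1 measured 3.22, 2.48 and 2.46 at day 2 and fell by 2.08 ± 0.29 (adjusted p = 0.0157). Its call was lost without day 2 replicate 2 (0.0566) or day 0 replicate 2 (0.0581), and also without the 3 doubted arrays (0.0581). Ifit3 was at 2.51 on all 3 arrays and fell by at least 0.72 ± 0.15 (adjusted p = 0.0425). The Ifit3 call was lost without any 1 of the day 0, day 1 or medium arrays or day 2 replicate 2, at adjusted p of up to 0.149, without the 3 doubted arrays (0.0598) and under quantile normalization (0.0547). A fit of the 2 compared groups alone called neither gene (0.375 for both). Day 2 arrays lay below all day 0 arrays for 8 members (16.2% of all genes) and above them for 2 (6.46%).

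Several of the largest day 2 differences rested on replicates 1 and 2. Bst2, the surface protein tetherin that holds budding virus on the cell, measured 4.21, 3.60 and 8.31 at day 2, against 8.63, 9.60 and 9.14 at day 0, a change of -3.75 ± 1.16 (adjusted p = 0.101). Parp9, an ADP-ribosyltransferase partner in interferon signalling, measured 2.74, 3.82 and 6.57 against 8.02, 7.69 and 7.23, a change of -3.27 ± 0.86 (adjusted p = 0.0746). Irgm2 measured 3.87, 4.84 and 6.19 against 7.25, 7.89 and 7.10, a change of -2.45 ± 0.78 (adjusted p = 0.108). In all 3 genes replicate 3 lay nearest to day 0, and replicates 1 and 2 are those with low upper quartiles, whose part in these values was not tested. Without the 3 doubted arrays the changes were -0.82 for Bst2 (adjusted p = 0.515), -1.08 for Parp9 (0.492) and -1.22 for Irgm2 (0.345), and that setting called 1 member at day 2, Psmb8, higher, and 0 lower, where 1.45% of all genes were called. Without replicate 3, 7 members were called, Bst2, Parp9, Irgm2, Ifi27, Ifit2, Ifit3 and Irgm1, all lower, in a setting that called 28.7% of all genes.

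Day 2 replicate 1 held the highest value of 7 of the 30 members that entered: Oas1a, Oas2, Usp18, Igtp, Iigp1, Psmb8 and Xaf1. Oas1a, an oligoadenylate synthetase that activates the antiviral RNase L, measured 7.61 there and 2.28 on both other day 2 arrays, a change against day 0 of 1.52 ± 1.18 (adjusted p = 0.398). Without replicate 1 the change was -0.26. Oas2, of the same family, measured 4.83 there and 2.90 and 2.85 on the other arrays of the group. This array also had the highest summed blood marker signal, 55881, and the largest Gapdh gap, and the part of either in these values was not tested.

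Psmb8, a catalytic subunit that turns the proteasome into the immunoproteasome, was the member whose values separated days 2 and 3 from the rest. It measured 5.92, 5.71 and 5.71 at day 0, 5.76, 6.09 and 5.73 at day 1, 11.18, 6.50 and 7.36 at day 2, 8.64 and 8.0 at day 3, and 5.76 and 5.55 in the medium control. All 5 arrays of days 2 and 3 were above all 8 others. The share of all genes with this joint separation was not counted. In the single comparisons, 6.46% of all genes at day 2 and 15% at day 3 were higher than day 0 without overlap. Against day 1 these shares were 2.5% and 8.28%. Its change against day 0 was 2.57 ± 0.95 at day 2 (adjusted p = 0.141) and 2.54 ± 1.07 at day 3 (adjusted p = 0.331), and neither passed with all arrays in the fit. Without the 3 doubted arrays, which leaves 1 array each at days 2 and 3 and assumes that a lone array varies like the other groups, it passed at both days, at 1.59 ± 0.18 (adjusted p = 0.0209) and 2.86 ± 0.18 (adjusted p = 0.000871). Without day 2 replicate 1 alone it passed at day 3, at 2.54 ± 0.28 (adjusted p = 0.00409). A second probe set of Psmb8 changed by 2.36 at day 2 and 0.60 at day 3. It measured 8.56, 3.99 and 3.07 at day 2 and 3.07 on both medium arrays. This probe set therefore did not separate days 2 and 3 from all other arrays.

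Psmb9, another such subunit, had wider day 0 values. It measured 5.16, 4.93 and 7.26 at day 0, 5.29, 6.76 and 5.93 at day 1, 8.31, 6.33 and 7.01 at day 2, 8.47 and 6.31 at day 3, and 5.05 on both medium arrays. Day 0 replicate 3 overlapped with both later days. Its change was 1.43 ± 0.79 at day 2 (adjusted p = 0.269) and 1.60 ± 0.89 at day 3 (adjusted p = 0.476). Blood cell markers moved in the same arrays: Mpo, the myeloperoxidase of granulocyte precursors, measured 3.53 on all day 0 and medium arrays, 5.61 to 6.50 at day 1, 8.54 to 12.36 at day 2 and 9.86 and 10.70 at day 3. The part of blood cell RNA in the immunoproteasome values was not tested.

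**Figure D4:**
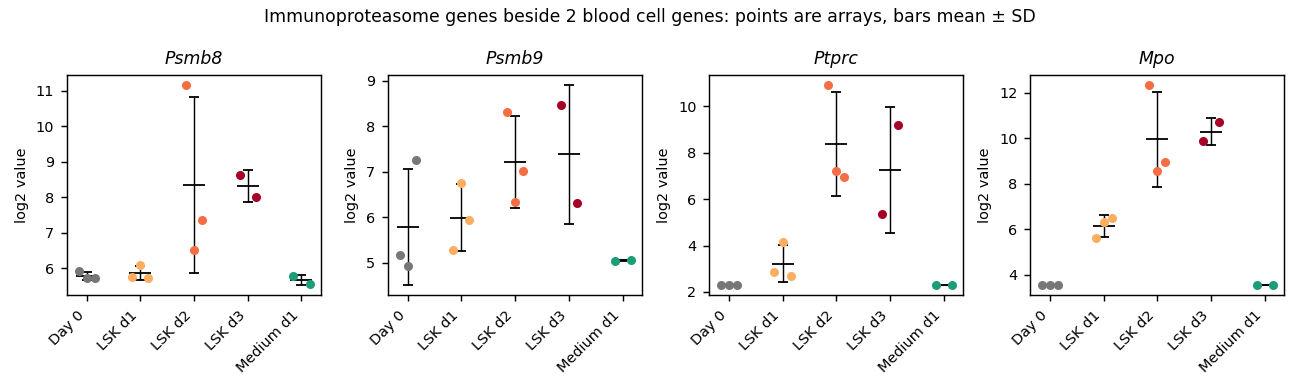
Deposited log2 value of the immunoproteasome genes Psmb8 and Psmb9 and of the blood cell genes Ptprc and Mpo on each array (points), with group mean and SD (bars). Psmb8 lies at 5.55 to 6.09 at day 0, at day 1 and in the medium control and at 6.50 to 11.18 at days 2 and 3, where Ptprc and Mpo are also above all other arrays.

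At day 3 against day 0, 1 of 30 members was called, where 0.819% of all genes were, 0.352% higher and 0.467% lower. Irgm1 lay at its floor of 2.48 on both day 3 arrays and fell by at least 2.32 ± 0.33 (adjusted p = 0.0233). Its call was lost without day 0 replicate 2 (0.0806), day 3 replicate 2 (0.0977), medium control replicate 1 or 2 (0.0614), or day 1 replicate 2 or 3 (0.0601 and 0.0582), and in a fit of the 2 compared groups alone (0.0910). Without the 3 doubted arrays 1 array is left at day 3, with Irgm1 at 2.48, Ifit2 at 9.22 and Oas2 at 3.05. The change of Oas2 was then 0.19, from a day 0 group wholly at its floor of 2.85. Ifit2 measured 9.22 and 8.80, below every day 0 array, a change of -1.52 ± 0.37 (adjusted p = 0.105) that passed without day 2 replicate 1 (0.0238) or replicate 2 (0.0423). Day 3 arrays lay below all day 0 arrays for 7 members (20.5% of all genes) and above them for 2 (15%), together 35.6% of all genes, and the median change was -0.13, against 0 over all genes.

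Ifi35 showed how far probe sets of 1 gene can part. The probe set used measured 13.02, 13.44 and 13.30 at day 2 and had a change of 0.92 against day 0, while the other 2 had changes of -2.0 and -0.79. The used probe sets of Ifi35, Trim25 and Ifi27 carry a suffix for probes shared by several transcripts, and that of Gbp2 one for probes that can cross-hybridise. Trim25, a ubiquitin ligase that activates RNA sensing, measured 10.82 to 12.26 over all arrays and was called in no comparison with all arrays in the fit. Ifi27, a small membrane protein, measured 9.15 to 11.87 and was called in none either.

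Between days of co-culture, 0 of 30 members passed from day 1 to day 2 in limma, where 0.00819% of all genes did, with 3 members higher and 2 lower at an unadjusted p under 0.05 (12.6% of all genes). Gbp3 measured 10.97, 10.96 and 10.03 at day 2 and 9.20, 8.67 and 7.36 at day 1, without overlap, a change of 2.24 ± 0.65 (adjusted p = 0.378). Ifih1 measured 9.05, 7.46 and 7.50 at day 2 and also lay above its 3 day 1 values, a change of 1.23 ± 0.48 (adjusted p = 0.378). Day 2 arrays lay above all day 1 arrays for 3 members (2.5% of all genes), the third being Psmb8, and below them for Tap1 and Bst2 (9.89%). The count of calls was 4 without day 2 replicate 3 (Gbp3 higher, and Bst2, Parp9 and Tap1 lower), where 15.5% of all genes were called. Without the 3 doubted arrays it was 1 (Psmb8, higher), where 0.574% were.

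From day 1 to day 3 again 0 of 30 members passed, where 0.00819% of all genes did, with 3 higher and 0 lower at an unadjusted p under 0.05 (2.93% of all genes). Both day 3 arrays lay above all day 1 arrays for 7 members, Ifih1, Adar, Ifit3, Oas1a, Psmb8, Xaf1 and Parp14 (8.28% of all genes), and below them for 0 (11.5%), with 19.8% of all genes separated in either direction. Some of these separations rest on low or repeated values. Ifih1 measured 7.71 on both day 3 arrays. Oas1a measured 3.17 and 2.36 at day 3 and 2.28 on all day 1 arrays, and the day 1 arrays of Ifit3 were at a floor. The median change of the members was 0.26, against -0.02 over all genes. Psmb8 had a change of 2.46 ± 1.07 (adjusted p = 1), and passed without day 2 replicate 1, at 2.46 ± 0.28 (adjusted p = 0.0142).

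The transcription factors of the response had little signal of their own apart from Irf1 and Irf9. Stat2 measured 2.29, 4.31 and 3.26 at day 0 and 2.28 to 2.44 on all other arrays, with no call in any comparison. Irf9, its DNA-binding partner, measured 5.23 to 5.89 at day 0 and 4.63 to 5.54 on the others. Day 0 replicate 2 held the highest value of 10 of the 30 members that entered, among them Stat2, Irf9, Ifih1, Dhx58, Adar and Ifit2.

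The remaining members stayed low or varied within groups. Dhx58, the sensor LGP2, measured 4.49 on day 0 replicate 2 and its floor of 2.85 on 10 arrays. Adar, which edits adenosine in double-stranded RNA, measured 2.64 to 4.58. Usp18, the protease that removes ISG15 from proteins, measured 2.28 to 3.22, and Iigp1, another immunity-related GTPase, 2.28 to 3.23. None of the 4 was called in any comparison with all arrays in the fit. Gbp2, a guanylate-binding protein, measured 6.58 on day 0 replicate 1 and 2.28 on day 1 replicate 3, and 4.38 to 5.61 on the others. Xaf1, a proapoptotic zinc finger protein, measured 2.82 to 5.08, Rtp4 2.78 to 4.04 and Parp14, a relative of Parp9, 2.28 to 4.52, the highest of each of the last pair being on day 3 replicate 1. These 4 were not called either.

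Genes upstream of the members were taken from a list of the wider pathway. Of 6 interferon genes with a probe set, 0 exceeded a value of 5 on any array: Ifnb1, Ifna2 and Ifna4 stayed at 2.28 to 2.38, Ifna1 at 2.44 to 2.63, and Ifng at 2.28 on 11 arrays with 3.91 on day 3 replicate 2. Ifna5 reached 4.73 on day 2 replicate 1 and 2.32 at most elsewhere. The other 4 interferon genes of the list were not analysed here. All 8 receptor and kinase genes exceeded 5 on some array.

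Among those 8, 2 rose at day 1 of co-culture against the medium control and 0 fell, where 5.2% of all genes were called, 2.15% higher and 3.05% lower. Tyk2, the kinase bound to the type I receptor, measured 10.09, 9.57 and 9.31 in co-culture and 6.55 and 6.56 in the medium control, without overlap. It rose by 3.10 ± 0.58 (adjusted p = 0.0239), and by 1.55 ± 0.36 with its probe sets averaged (adjusted p = 0.0408). The average was lower than the probe set used, so what was averaged with it rose less or not at all. The receptor subunit Ifnar2 measured 9.48, 9.38 and 9.23 in co-culture and 8.24 and 8.48 in the medium control, and rose by 1.00 ± 0.23 (adjusted p = 0.0396). At day 0 Tyk2 measured 7.68, 9.28 and 9.16 and Ifnar2 8.61, 8.77 and 9.30, and neither passed in a comparison with day 0. The other subunit, Ifnar1, averaged 5.93 in day 1 co-culture, 6.11 in the medium control and 6.02 at day 0, and Jak1 averaged 8.69, 9.0 and 8.59 in the same order. Both calls were lost without any 1 of the 5 compared arrays, at adjusted p of 0.0698 to 0.201 for Tyk2 and 0.0970 to 0.291 for Ifnar2, whose call was also lost without day 0 replicate 2 (0.0566) or with averaged probe sets (0.215). The part of blood cell RNA in these rises was not tested.

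Of 23 further interferon-inducible genes tested, Isg20 and Tor3a were called, in comparisons that called 5.2% (day 1 against medium), 2.15% (day 1 against day 0) and 2.26% (day 2 against day 0) of all genes. Isg20, an exonuclease that degrades RNA, measured 8.56, 8.24 and 8.45 in day 1 co-culture, against 6.01 and 6.07 in medium and 6.37, 6.53 and 6.58 at day 0. It rose by 2.37 ± 0.43 against the medium control (adjusted p = 0.0207) and by 1.92 ± 0.38 against day 0 (adjusted p = 0.0407). At day 2 it measured 9.15, 7.34 and 8.30, above every day 0 array, and rose by 1.77 ± 0.38 (adjusted p = 0.0498), or 1.81 without the 3 doubted arrays (adjusted p = 0.00649). Over the 19 alternatives these calls held in 14, 9 and 6, at adjusted p of up to 0.185, 0.158 and 0.401, and blood cell markers were also higher on these arrays, with their part not tested. Tor3a, a torsin ATPase, measured 5.50, 5.44 and 6.14 at day 2, against 7.42, 6.98 and 7.11 at day 0, and fell by 1.47 ± 0.25 (adjusted p = 0.0289). Its change was -0.67 under quantile normalization (adjusted p = 0.212), -0.69 with averaged probe sets (adjusted p = 0.0384) and -1.03 without the 3 doubted arrays (adjusted p = 0.128). Irf2, a factor that opposes Irf1, was the 1 call of 6 signal transducers. It measured 7.53, 6.73 and 6.83 at day 2, against 6.12, 5.48 and 5.82 at day 0, without overlap, and rose by 1.23 ± 0.27 (adjusted p = 0.0498), and 1.02 without the 3 doubted arrays did not pass (adjusted p = 0.112). The call of Tor3a held in 6 of 19 alternatives (adjusted p of up to 0.375) and that of Irf2 in 2 (up to 0.387). None of the 9 tested genes of MHC class I presentation, the 10 of nucleic acid sensing or the 4 negative regulators was called by limma in any of the 7 comparisons. Counted over the 7, the first list had 0 higher and 5 lower values at an unadjusted p under 0.05, the second 5 and 5, and the negative regulators 0 and 0, where 2.93% to 26.3% of all genes were under that p in a comparison.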

How the data were processed

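Labelled RNA of 13 samples was hybridised to Affymetrix mouse arrays. The deposited table gives a log2 value per probe set and array, and names RMA and GCRMA without saying which made the values, per the submitters' processing notes. It was used as deposited. A probe set entered if above the pooled median of 2.38 on at least 2 arrays, and each gene was its probe set with 1 symbol and the highest mean. All 13 arrays, grouped by title, entered a single fit in limma 3.58.1 (R 4.3.3), so groups share a spread. The 7 comparisons used Benjamini-Hochberg adjustment over 12205 genes and a threshold of 0.05. The fit was tested on simulated data. The number of arrays limits the precision. The members, lists, motifs and rules were chosen with earlier results of these data known.

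All 41 members are accounted for. Named with values are those past the threshold, the 3 largest rises and falls of each comparison, members with the highest or lowest mean of a role, and those that did not enter, together with listed pathway genes past the threshold, receptor and interferon genes. Some others, such as Oas2, were picked after their values were seen. Alternatives used no filter, quantile normalization, the mean of probe sets, the compared groups only, a block for replicate number, or 1 array fewer for each of the 13. Leaving out day 2 replicates 1 and 2 and day 3 replicate 2 together was added after the data were seen. Replicate numbers do not mark a shared batch in the labels.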

Additional observations from a re-analysis of the deposited data

How the results depend on the processing

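Of 855 combinations of a named gene's change with an alternative, 755 kept direction and side of the threshold, 60 lost a call, 24 gained one and 16 reversed, all 16 in changes that were not called. Without a filter, 1 member was called for medium against day 0 (Ifit3) and 1 for day 1 co-culture against medium. Fitting only the compared groups gave 6 for day 1 against medium, where 37.5% of all genes were called, and 0 for days 2 and 3 against day 0, and quantile normalization gave 1 for day 2 against day 0. Averaging probe sets kept every count within 1.5 times. Same-numbered samples share only a number: their deviations correlated from -0.37 to 0.26, and not every sample correlated best with its own number. With the replicate number as a block, the counts of members called were 0 for day 1 against medium, 1 for day 1 and 1 for day 2 against day 0, and 0 for day 3 against day 0, and the calls of Tyk2 (adjusted p = 0.0639) and Ifnar2 (0.0950) were lost. Without the 3 doubted arrays they were 2 (medium against day 0), 6 (day 1 against medium), 5, 1 and 4 (days 1, 2 and 3 against day 0), 1 (day 2 against day 1) and 1 (day 3 against day 1), where 6.24%, 30.9%, 23.3%, 1.45%, 14.1%, 0.574% and 2.14% of all genes were called. Leaving out 1 array gave 0 to 2, 0 to 5, 0 to 4, 0 to 7, 0 to 3, 0 to 4 and 0 to 1 in this order. Where fewer arrays were fitted, that is part of the change by construction, and otherwise the cause was not tested.

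Among changes that did not pass, Gbp2 for medium against day 0 (0.03) was -0.17 with averaged probe sets and -0.47 with the block, and -0.44 to 0.65 when 1 array was left out. Oas1a for day 2 against day 0 was -0.26 without the doubted arrays, and -0.26 to 2.40 when 1 was left out. Day 2 against day 1 without the doubted arrays gave 0.37 for Parp9 (-1.83 with all arrays) and 0.026 for Tap2 (-1.83). Day 3 against day 1 gave 1.25 for Irgm2 (-0.27) and 1.23 for Bst2 (-0.29) without the doubted arrays, 0.14 for Bst2 with the block, and -1.79 to 1.25 and -1.81 to 1.23 when 1 array was left out. Signal near the floors limits the 9 members that did not enter. It also limits the 9 that entered with a floor: Dhx58, Ifit3, Oas1a, Oas2, Stat2, Usp18, Irgm1, Igtp and Iigp1. Changes of these genes cannot be measured below a floor.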
